A study of Mus musculus with 3 samples.

Results

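Fibrillar collagens are the structural proteins of the dermis, and 9 genes for their chains are described here, of 32285 genes in the matrices: Col1a1, Col1a2, Col3a1, Col5a1, Col5a2, Col5a3, Col11a1, Col24a1 and Col27a1. They were taken by name. Col2a1 and Col11a2, chains best known from cartilage, are not among them and were put in the list of other collagens, under its minimum level. The data are 3′ single-cell RNA-seq of mouse dorsal skin in 3 libraries, 1 per condition, named CON, UV and Rux. The mice were wild type C57BL/6J, labelled as female and 8 weeks old. The study gives that age where it describes the purchase of the mice. It cannot be the age of the irradiated mice at sampling, after 12 weeks of exposure, and that age is not stated. CON skin was not irradiated. UV skin was exposed every other day for 12 weeks, to UVA of 0.60 mW/cm2 together with UVB of 3.5 mW/cm2. Rux skin received the same light, and ruxolitinib, an inhibitor of the kinases JAK1 and JAK2, was put on after irradiation as a 1.5% ointment. By the design the study gives, CON and UV skin received the vehicle in its place. Skin was taken 24 h after the last exposure. How many mice went into a library is not stated in the sources used here, so a difference between libraries cannot be told apart from a difference between mice, dissociations or captures. No test across samples was possible, and no p-value is given.

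A fibrillar collagen is secreted as a triple helix of 3 chains, trimmed outside the cell and packed side by side into fibrils. In skin, type I collagen (chains of Col1a1 and Col1a2) makes up most of the fibril and type III (Col3a1) mixes with it. Types V and XI (Col5a1, Col5a2, Col5a3, Col11a1) sit in small amounts in the fibril core, where they start fibrils and limit their width. Types XXIV and XXVII (Col24a1, Col27a1) are later found fibrillar chains, best known from bone and cartilage. Dermal fibroblasts are the main source of types I, III and V.

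The deposited matrices held 13170, 12411 and 11287 cells in CON, UV and Rux, of which 10777, 10231 and 9299 were retained, with medians of 7530, 7658 and 9451 UMIs per cell. A UMI marks 1 captured RNA molecule. The levels of the genes are UMIs of the gene per 1000000 UMIs of the same cells (CPM). They are not divided by gene length, because a 3′ method counts ends of molecules. All 3 libraries carried the Y-linked gene Ddx3y at 110 to 121 CPM and Xist at 0.092 to 0.120 CPM, which goes against the label female in each of them. The libraries shared 28 to 50 cell barcodes pairwise. The 46 clusters were built without batch correction and without any collagen gene, and 10 of them were named fibroblast-like (FB-like) from markers that include no collagen. FB-like cells numbered 3440, 5114 and 5104 in CON, UV and Rux, which was 31.9%, 49.99% and 54.9% of the retained cells. A further cluster of 508, 498 and 375 cells scored highest for fibroblast markers but was left unnamed for its low UMIs per cell. Its Col1a1 was 1439, 3733 and 2105 CPM, and it is in none of the FB-like values. All 8 fibroblast markers were present, with summed levels of 16804, 17702 and 17023 CPM. These markers gave the cells their name, so their presence is no separate check of it. In the same cells the summed level of 12 epithelial markers was 538, 233 and 250 CPM, and that of 5 haemoglobin-cell markers was 51.7, 63.6 and 123 CPM. The part of these in the results was not tested.

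The 9 genes lie on 7 chromosomes and span 16.8 kb (Col1a1) to 260 kb (Col24a1) in GRCm38. Col1a1 is at chr11:94936224-94953042 and Col1a2 at chr6:4504814-4541544, both on the plus strand, so the chains of 1 helix come from separate chromosomes. Col3a1 (chr1:45311538-45349706, plus strand) and Col5a2 (chr1:45374321-45503282, minus strand) point toward each other across a gap of 24.6 kb. Col5a1 is at chr2:27886425-28039514, Col5a3 at chr9:20770050-20815067, Col11a1 at chr3:114030540-114220718, Col24a1 at chr3:145292472-145552011 and Col27a1 at chr4:63214004-63334991. Only Col24a1 overlaps another counted gene on its own strand, D530037P16Rik, so its reads could be split between the genes.

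RefSeq promoters (GRCm38.p6) were found for 7 of the 9 genes, all but Col1a1 and Col5a2. The 150 bases before the annotated start are shown for the abundant chains Col1a2 and Col3a1 and for the minor chains with the most uneven levels described further on, with capitals marking the CCAAT box or, on the other strand, ATTGG. The CCAAT box is the site of the factor NF-Y, long studied in type I collagen promoters.
Col1a2: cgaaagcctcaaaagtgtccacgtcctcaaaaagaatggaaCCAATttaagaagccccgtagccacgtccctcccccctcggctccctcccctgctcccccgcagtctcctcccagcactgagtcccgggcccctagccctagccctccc
Col3a1: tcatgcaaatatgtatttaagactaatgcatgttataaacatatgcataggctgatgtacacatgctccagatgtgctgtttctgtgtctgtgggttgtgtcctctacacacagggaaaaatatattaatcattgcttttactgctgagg
Col5a3: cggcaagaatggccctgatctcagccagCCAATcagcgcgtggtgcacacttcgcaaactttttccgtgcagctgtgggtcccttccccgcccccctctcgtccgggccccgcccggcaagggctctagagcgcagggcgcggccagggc
Col11a1: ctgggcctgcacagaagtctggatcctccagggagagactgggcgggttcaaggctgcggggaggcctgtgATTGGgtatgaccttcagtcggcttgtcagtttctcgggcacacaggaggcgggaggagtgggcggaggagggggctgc
Col24a1: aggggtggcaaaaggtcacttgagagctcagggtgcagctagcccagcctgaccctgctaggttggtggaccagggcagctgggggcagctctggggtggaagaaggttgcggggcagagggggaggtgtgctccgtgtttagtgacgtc
These windows are chr6:4505468-4505617 (plus strand) for Col1a2, chr1:45311388-45311537 (plus) for Col3a1, chr9:20815068-20815217 (minus) for Col5a3, chr3:114030390-114030539 (plus) for Col11a1 and chr3:145292322-145292471 (plus) for Col24a1. In the 250 bases before the start, read on both strands, CCAAT stood in 3 of the 7 promoters, at 109 bases from the start in Col1a2, 122 in Col5a3 and 79 in Col11a1, against 33.8% of 32536 promoters. TATAAA stood in 1 of 7 (Col3a1) against 12.3% of all, and GGGCGG, the core of a GC box, in 5 of 7 against 33.0%. The Col3a1 window is also the poorest in G and C, at 37.3%, where the other 6 held 62.7% to 74.7%. The Col1a2 window lies inside the gene as placed above, because the RefSeq start of Col1a2 is downstream of the start in the gene positions. These matches describe letters only. Whether they bear on the levels described next was not tested.

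The first question was how the transcripts of each chain stood in FB-like cells of unirradiated, irradiated and ruxolitinib-treated skin. Summed over FB-like cells, the type I transcripts were lower in UV than in CON, Col3a1 differed little, and the minor chain Col5a3 was highest in Rux. Of the 9 genes, 8 reached the mean of 10 CPM that was asked of the 8312 genes compared, and Col24a1 did not. Of these 8, 0 were more than 1.5-fold higher in UV than in CON and 1 more than 1.5-fold lower (Col1a1), where 6.30% and 8.30% of all genes compared passed the same limits. From UV to Rux, 1 was higher (Col5a3) and 0 lower, where 3.42% and 5.09% of all genes passed. Col24a1, under the minimum and so outside that background, was past 1.5-fold higher in UV than in CON, though not with the strict cell filter or without the Socs3-led subcluster, and past it lower in Rux than in UV. The median log2 ratio of the 9 genes was −0.05 for UV over CON and −0.01 for Rux over UV, and that of all genes −0.11 and 0.03. Their median lay close to that of all genes, and the differences were between single chains. Intervals given with these values are exact 95% intervals that cover counting error only, and they leave out the spread between mice.

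Col1a1, the α1 chain of type I collagen, stood at 7592 CPM in CON, 4255 in UV and 4188 in Rux. CON was the high library, and UV and Rux lay side by side. The log2 ratio was −0.84 (−0.84 to −0.83) for UV over CON and −0.02 (−0.03 to −0.01) for Rux over UV. Col1a2, the α2 chain, was the most abundant of the 9 in each library, at 8746, 6233 and 5659 CPM, with log2 ratios of −0.49 and −0.14. Col3a1 stood at 4757, 4104 and 4892 CPM, lowest in UV by −0.21 and then higher in Rux by 0.25. These 3 genes ranked among the 10 most abundant of all genes in FB-like cells of each library.

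The regulatory chains ran far below these levels. Col5a1 stood at 296, 285 and 284 CPM, with log2 ratios of −0.05 and −0.01. Col5a2, its partner in the common type V helix, was 472, 505 and 615 CPM, with log2 ratios of 0.10 and 0.28. Col5a3, a rarer type V chain, was 61.1, 83.4 and 189 CPM. Its log2 ratio was 0.45 for UV over CON, under the 1.5-fold limit, and 1.18 (1.12 to 1.24) for Rux over UV, so that Rux stood 3.09-fold above CON. Col11a1 was 90.3, 69.3 and 66.4 CPM, with log2 ratios of −0.38 and −0.06. The first of these turned to 0.31 when cells were thinned to 2000 UMIs and was −0.99 with a strict cell filter, so no direction is read from it.

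The last pair were scarce. Col27a1 was nearly level at 25.5, 27.4 and 28.2 CPM. Col24a1 was the rarest at 3.74, 6.59 and 3.94 CPM, resting on 89, 258 and 223 UMIs. UV was the high library, with log2 ratios of 0.81 (0.46 to 1.18) for UV over CON and −0.74 (−1.01 to −0.48) for Rux over UV. Both intervals reach inside the 1.5-fold limit. The 9 genes together took 2.20%, 1.56% and 1.59% of the UMIs of FB-like cells in CON, UV and Rux. The minor chains (types V, XI, XXIV and XXVII) together took 0.095%, 0.098% and 0.119%, so the difference in the total came from types I and III.

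**Figure D1:**
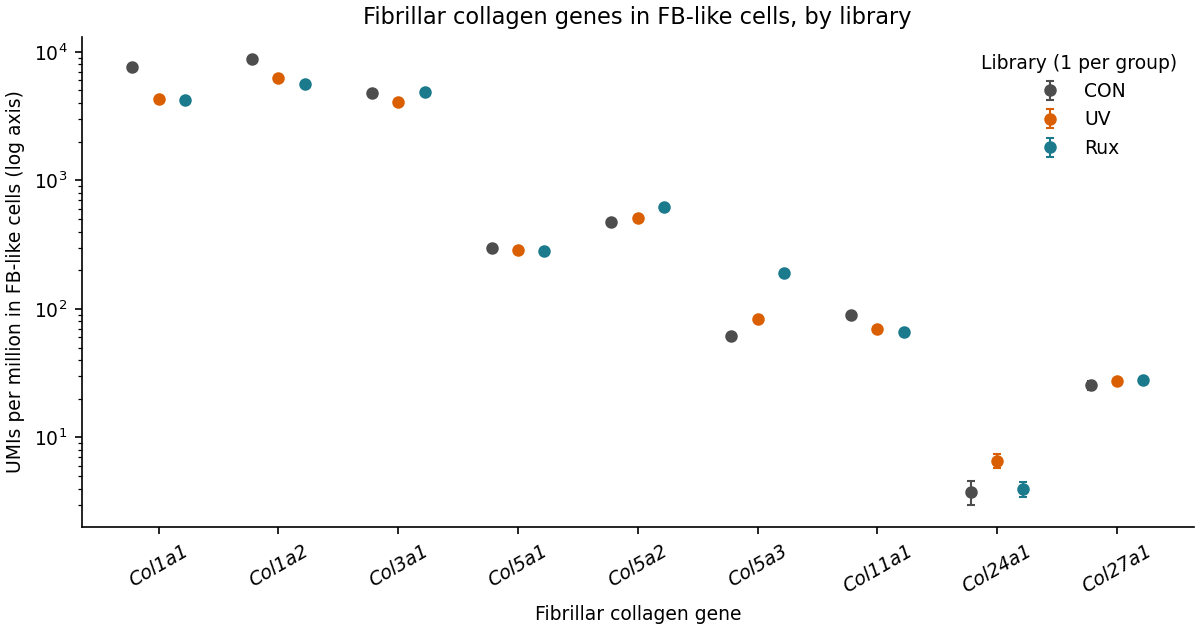
Level of each of the 9 genes in the FB-like cells of each library, in CPM on a log axis, with 1 library per condition and bars for the exact 95% counting interval where wider than the symbol. Col1a1 and Col1a2 are highest in CON, at 7592 and 8746 CPM, while Col5a3 climbs from 61.1 to 189 CPM and Col24a1 peaks in UV at 6.59 CPM.

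The balance between chains shifted with these levels. There was 0.868 UMI of Col1a1 for each of Col1a2 in CON (0.863 to 0.874), 0.683 in UV and 0.740 in Rux. Col1a1 to Col3a1 was 1.60 in CON, 1.04 in UV and 0.856 in Rux. Col5a1 to Col5a2 was 0.627, 0.565 and 0.462, and Col5a2 to Col1a1 was 0.062, 0.119 and 0.147. The counting intervals of the libraries did not overlap in any of these ratios. Ratios between genes from 3′ counts depend on how well each 3′ end is captured, so only their differences between libraries can be read.

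The level of a gene summed over cells hides how it is spread. Each cell was thinned to 2000 UMIs, which left out 153, 272 and 154 shallower FB-like cells, in the order CON, UV and Rux. After that, the median FB-like cell held 2, 3 and 2 UMIs of Col1a1, so the typical cell was not the one that set the summed level. The cell at the 95th percentile held 62.7, 28 and 26 UMIs. The top 10% of cells carried 70.9% of all Col1a1 UMIs in CON, 51.3% in UV and 52.2% in Rux. The share of cells with a UMI of Col1a1 was 77.2%, 82.1% and 75.3%, and for Col1a2 94.5%, 97.1% and 93.5%. Both were highest in UV, the reverse of the summed level between CON and UV, so no order is read from them. Free RNA sets a floor, since lymphocyte-like cells showed a Col1a1 UMI in 24.1%, 17.5% and 22.0% of cells at the same thinned depth (median depths before thinning were 5421, 5393 and 5610 UMIs, and 6072, 7320 and 9929 in FB-like cells). Col5a3 was seen in 8.46%, 10.5% and 17.6% of FB-like cells and in at most 0.29% of lymphocyte-like cells, far above that floor. Col11a1 was seen in 3.16%, 3.51% and 4.28% of FB-like cells, and Col24a1 in 0.46%, 0.83% and 0.51%.

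The uneven spread led to the subclusters. FB-like cells were split, again without collagen genes, into 14 subclusters, called here by their leading gene by fold. They have no replicate, were not integrated across libraries, and differ in share between libraries, so the shares describe these 3 libraries only. The subcluster led by Grem1, an extracellular inhibitor of BMP signalling, stood far above the rest for type I collagen. It held 28319 CPM of Col1a1, 29716 of Col1a2 and 17946 of Col3a1, all libraries together. Its 695 cells carried 40.3% of the Col1a1, 32.0% of the Col1a2 and 27.1% of the Col3a1 UMIs of all 13658 FB-like cells. In CON it made up 10.7% of FB-like cells, in UV 1.25% and in Rux 5.13%, or 369, 64 and 262 cells. Its Col1a1 level was 34665, 36714 and 20204 CPM in CON, UV and Rux. CON and UV were close and Rux was lower, by a log2 ratio of −0.86 to UV.

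The subclusters with the least Col1a1 were those led by Gm10801 (712 CPM), Thbs4 (843 CPM), Zfp804b (953 CPM) and Krt23 (1022 CPM). The Gm10801-led cells had a median of only 2934 UMIs and the haemoglobin gene Hba-a1 at 183 CPM. Their summed fibroblast markers were 2770 CPM, against 18874 in the Thbs4-led and 17170 in the Krt23-led cells. Whether they are fibroblasts was not tested. The Krt23 subcluster was 3.87% of FB-like cells in CON, 19.5% in UV and 9.46% in Rux. The largest in CON was led by Socs3, a feedback inhibitor of JAK-STAT signalling, with 33.5%, 7.24% and 1.78% of FB-like cells. Its Col1a1 level was 1450 CPM in CON and 3912 in UV. This subcluster also held the immediate early genes Fos at 6459 CPM and Junb at 5343 CPM. Such genes are known to be induced by tissue dissociation, and their part in the result was not tested.

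**Figure D2:**
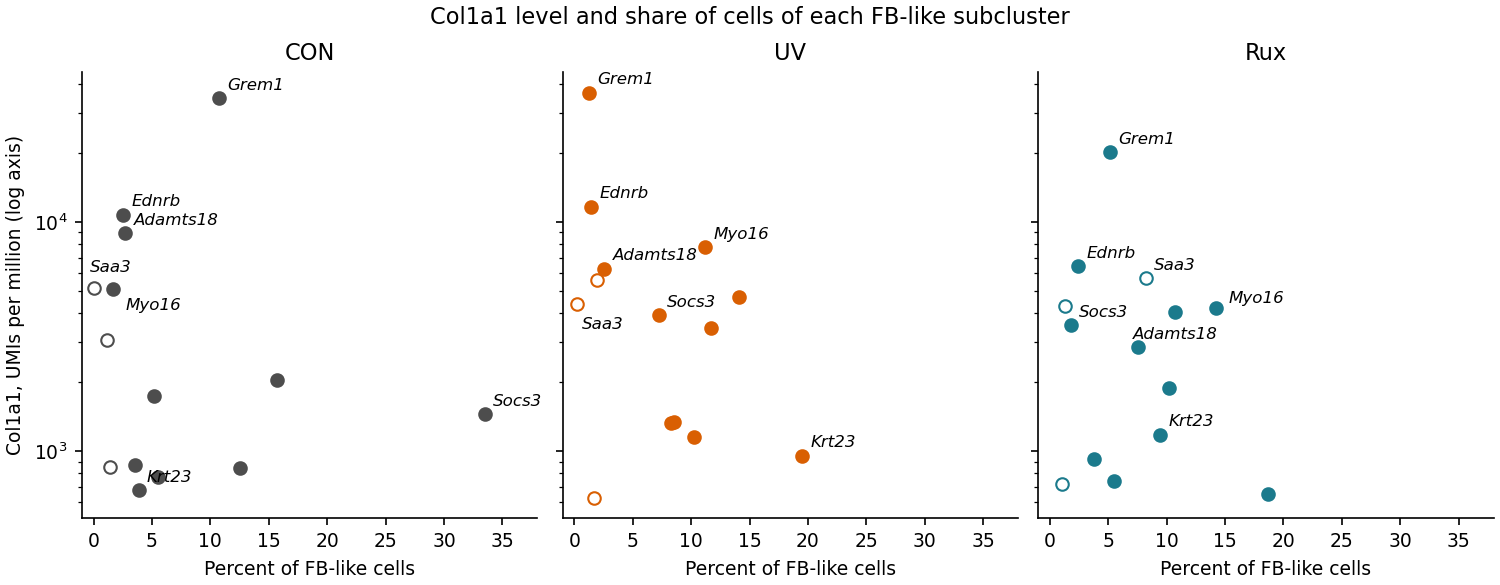
Col1a1 level of each FB-like subcluster (log axis, CPM) against its share of FB-like cells, 1 panel per library, with filled points for the 11 subclusters of at least 50 cells in every library and open points for the other 3. The Grem1-led subcluster has the highest Col1a1 in each panel and takes 10.7% of cells in CON, 1.25% in UV and 5.13% in Rux.

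Within subclusters the picture was different from the sum. Of the 11 subclusters with at least 50 cells in every library, Col1a1 was higher in UV than in CON in 10, with a median log2 ratio of 0.60 and a range of −0.52 to 1.43. The exception was the subcluster led by Adamts18, at 8964 CPM in CON and 6249 in UV. Col1a2 was higher in 10 of 11 (median 0.48), Col3a1 in 9 (0.77), and Col5a1 and Col5a2 in 11 each (0.35 and 0.51). For Col5a1 the counting interval lay above 0 in 6 of those 11. From UV to Rux, Col1a1 was lower in Rux in 10 of 11 (median −0.72), Col1a2 in 11 (−0.57), Col3a1 in 10 (−0.64), Col5a1 in 11 (−0.37) and Col27a1 in 11 (−0.70). Col5a2 was lower in 8 and higher in 3 (median −0.12), with the counting interval below 0 in 5. The exception for Col1a1 was the Krt23 subcluster, with a log2 ratio of 0.30. Col5a3 did not follow, being higher in Rux in 7 of 11 and lower in 4.

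The 11 subclusters were then held at the same shares in every library, each at its share of cells averaged over the libraries (called equal shares). The UV over CON log2 ratio of Col1a1 was then 0.36, against −0.60 for the same subclusters at their own shares of cells. In CPM, this equal-share level was 4300 in CON, 5529 in UV and 3386 in Rux. Col3a1 was 3171, 4992 and 3527 on the same scale, with log2 ratios of 0.65 and −0.50. All 9 genes had a ratio above 0 for UV over CON, from 0.02 (Col27a1) to 0.72 (Col11a1), and 8 had a ratio below 0 for Rux over UV, from −0.16 (Col5a2) to −0.73 (Col27a1). Col5a3 was the exception, at 0.25. The UV over CON ratio of Col27a1 kept its sign in only 2 of 4 alternatives. Ratios at equal shares and inside subclusters were made for these 9 genes only. No share of all genes stands beside their counts, so they cannot be read as particular to the collagens. In a comparison added after the data were seen, leaving out the Grem1-led cells altogether turned the summed Col1a1 ratio from −0.84 to 0.39, and those of Col1a2 and Col3a1 to 0.49 and 0.69. The Grem1-led cells held 126764 of 180585 FB-like Col1a1 UMIs in CON and 32380 of 166561 in UV. Leaving them out therefore had to raise the Col1a1 ratio. Leaving out the Socs3-led cells instead took the Col1a1 ratio to −1.32 and put Col1a2 (−0.88), Col3a1 (−0.59) and Col11a1 past 1.5-fold as well. The summed Col1a1 was lower in UV than in CON, while the level inside 10 of 11 subclusters was higher. The shares of the subclusters differed between these libraries as well, and their part in the summed ratio was not tested. Whether the shares differ between the conditions or between these captures cannot be told apart.

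**Figure D3:**
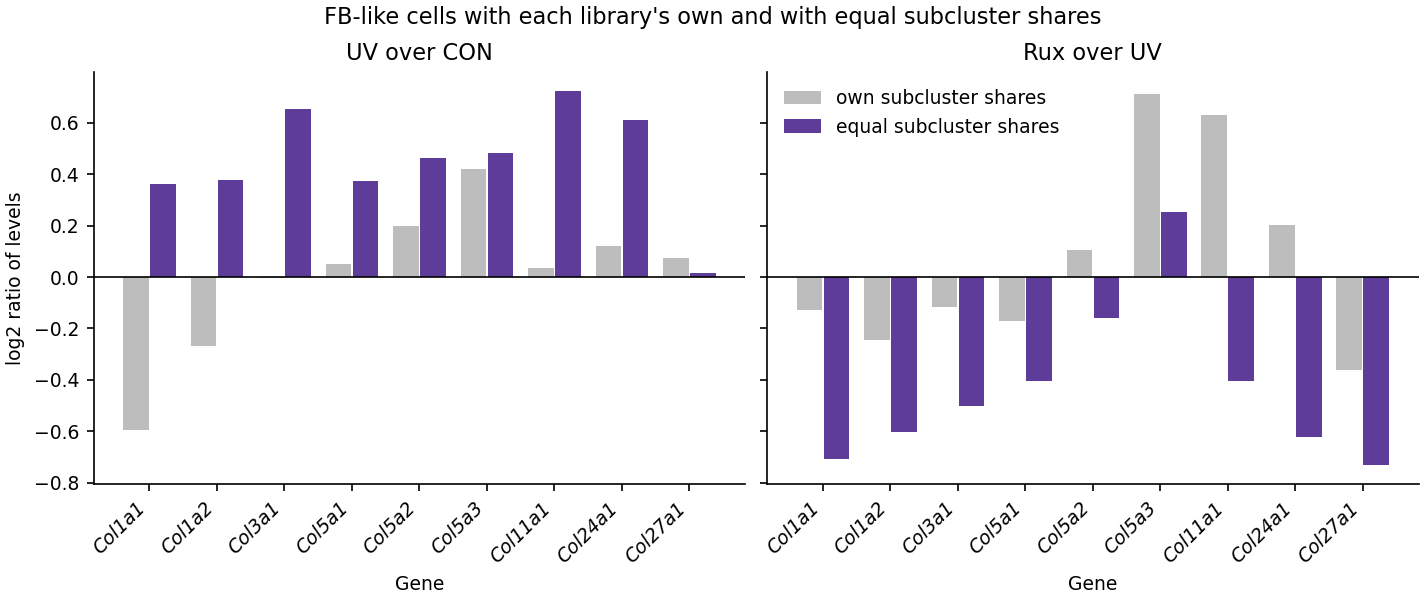
Log2 ratio of each gene for UV over CON and Rux over UV over 11 FB-like subclusters, once at each library's own subcluster shares and once at the same shares in every library (equal shares). For UV over CON, Col1a1 moves from −0.60 at own shares to 0.36 at equal shares, and for Rux over UV, Col5a3 goes from 0.71 to 0.25. The subclusters led by Saa3, Coch and Gm10801 are not among the 11.

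The ratio of Col1a1 to Col3a1 kept part of its order inside subclusters. It was lower in UV than in CON in 9 of 11 and lower in Rux than in CON in 10 of 11. At equal shares it was 1.36, 1.11 and 0.960 in CON, UV and Rux. Over all libraries it ran from 0.503 in the subcluster led by Rasgef1c to 3.27 in that led by Ednrb, the endothelin receptor B. The ratio of Col5a1 to Col5a2 was lower in Rux than in CON in 11 of 11. The drop of Col1a1 to Col1a2 between CON and UV did not recur inside subclusters, where it was lower in UV in 2 of 11.

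Col5a3 followed its own map. Its highest levels were in the subclusters led by Saa3 (476 CPM) and Adamts18 (353 CPM), which carried 23.7% and 24.7% of its FB-like UMIs. Saa3 encodes an acute-phase serum amyloid protein, and Hp and Lcn2, also among its leading genes, encode other acute-phase proteins. The Saa3 subcluster held 1, 13 and 419 cells in CON, UV and Rux. A cluster mostly of 1 library may be that library and not a cell type, and it was left out of the within-subcluster comparisons. Its Col3a1 was 10167 CPM and its Col1a1 5670 CPM. The Adamts18 subcluster, whose leading genes include Postn, was 2.70%, 2.56% and 10.7% of FB-like cells, and its Col5a3 level was 158, 343 and 383 CPM. Without the Saa3-led cells the Col5a3 log2 ratio for Rux over UV was 0.80, still past 1.5-fold.

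Col11a1 and Col24a1 were concentrated in small subclusters. The 285 cells led by Ednrb, with Acan (the proteoglycan aggrecan) and the contractile genes Acta2, Actg2 and Tagln next, held 75.9% of the Col11a1 and 33.0% of the Col24a1 UMIs of FB-like cells. Col11a1 there was 1169, 1942 and 1576 CPM in CON, UV and Rux, and Col24a1 32.0, 59.5 and 44.7 CPM. This subcluster had the fibroblast marker Dcn at only 857 CPM, Acta2 at 2357 CPM and the pericyte marker Rgs5 at 1.38 CPM, and its Pdgfra was 330 CPM. Its summed fibroblast markers came to 3929 CPM and its summed pericyte markers to 2491 CPM. The 207 cells led by Coch, with Kera and Fmod among the next genes, held 41.1% of the Col24a1 UMIs. Their Col24a1 was 56.6, 230 and 118 CPM and their Col11a1 275, 591 and 445 CPM. Both genes were highest in UV in both subclusters. In the Ednrb-led one the Rux over UV interval of Col24a1 (−0.92 to 0.10) spans 0. The Coch level in CON rests on 41 cells and 14 UMIs of Col24a1. The Coch subcluster is also under the minimum of 50 cells set for comparisons. The Ednrb subcluster was 2.50%, 1.45% and 2.45% of FB-like cells, and the Coch subcluster 1.19%, 1.96% and 1.29%.

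**Figure D4:**
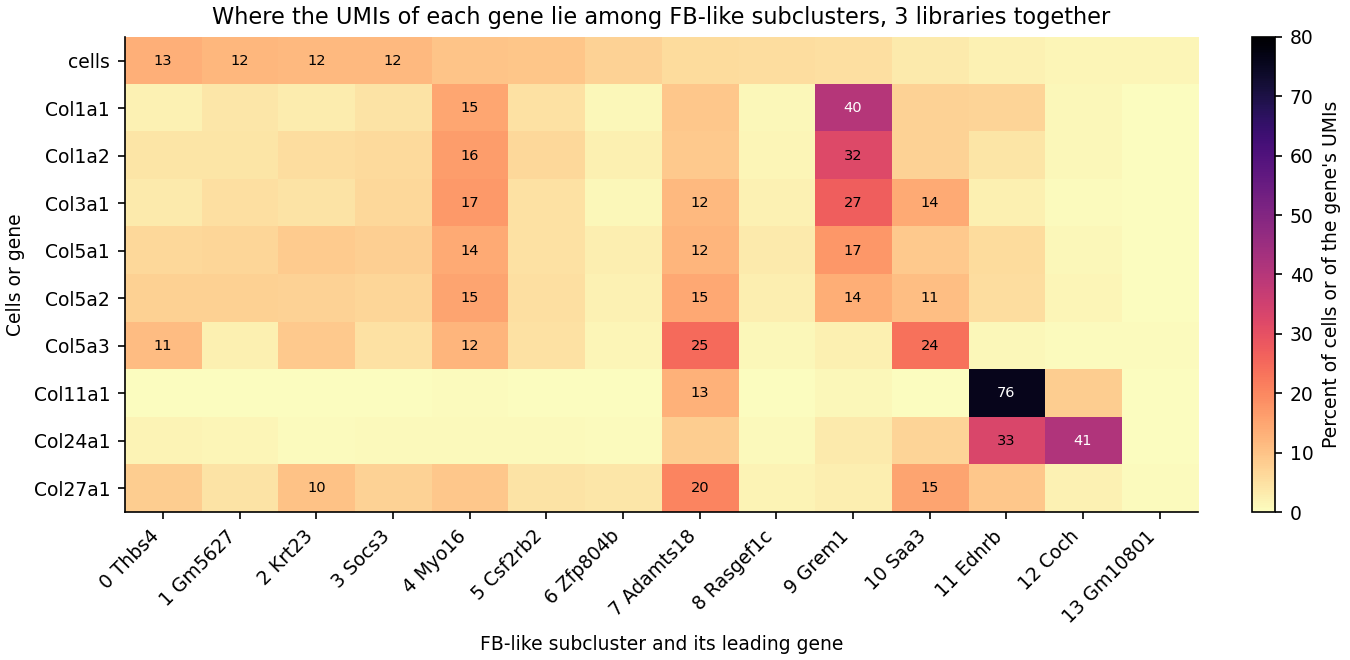
Share of each gene's FB-like UMIs, all libraries together, that each of the 14 subclusters holds. Col1a1 is concentrated in the Grem1-led subcluster (40.3%), Col11a1 in the Ednrb-led (75.9%), Col24a1 in the Coch-led (41.1%), and Col5a3 in the Adamts18-led and Saa3-led (24.7% and 23.7%).

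Genes whose levels followed those of a chain were sought over 33 points, the 11 subclusters in 3 libraries, among 6235 genes outside the family. The points share libraries and depth, so the correlations (Pearson's r of log2 CPM with 1 added) are descriptions. Col1a1 was followed most closely by Sparc, a collagen-binding matrix protein (r = 0.97), C1qtnf6 (0.93) and Serpinh1, the collagen chaperone HSP47 (0.92). The other 7 of the first 10 were Fkbp9, Cpz, Kdelr3, Ppic, Pde4d, Rrbp1 and Fkbp10, at 0.87 to 0.90. Among the chains, Col1a1 ran with Col1a2 (0.97), Col5a1 (0.94), Col3a1 (0.91) and Col5a2 (0.91), but not with Col5a3 (0.11). In single cells at 2000 UMIs the r of Col1a1 and Col1a2 was 0.83, 0.76 and 0.79 in CON, UV and Rux. Col11a1 and Col24a1 ran together (0.94). The genes nearest to Col11a1 were Aqp1 (0.97), Tpm2, Acta2, Stmn2 and Lrrc15 (0.94), and those nearest to Col24a1 were Acta2 (0.94), Tagln, Etl4, Stmn2 and Tpm2, a set that follows the Ednrb-led subcluster. By Pearson's r, Col5a3 and Col27a1 were followed less closely. That order did not hold by rank (Spearman's rho). For the gene with the highest r, rho was 0.81 for Col11a1 (Aqp1) and 0.66 for Col24a1 (Acta2). It was 0.78 for Col5a3 (Hsd17b12) and 0.82 for Col27a1 (Ywhae). The nearest to Col5a3 were Hsd17b12 (0.78), Mettl6, Riok3, Smg1 and Limd1, and to Col27a1 Ywhae (0.86), Sms, Mgst3, Rnf150 and Actn4.

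Outside fibroblasts, the question was which chains other cell types carried above free RNA. Myeloid-like and lymphocyte-like cells, which should make no type I collagen, held Col1a1 at 89.4 to 169 CPM and Col1a2 at 122 to 182 CPM, and Col5a3 at 1.47 to 4.42 CPM. Levels of that size in epithelial-like and endothelial-like cells are not read as expression. Of the 270 Col1a1 UMIs of lymphocyte-like cells in CON, 132 came from the Zmat4-led cluster described below, at 232 CPM. Col5a2 was 41.6, 57.2 and 72.6 CPM in the epithelial-like cluster led by Adamts19. In that led by Kcnb2 (8 cells in CON) it was 74.3, 116 and 77.3 CPM. Myeloid-like cells held it at 8.84, 18.6 and 13.3 CPM, and epithelial-like cells outside the Adamts19 cluster at 9.14, 13.0 and 16.6 CPM. In classes with fewer UMIs per cell Col1a1 stood higher than in myeloid-like and lymphocyte-like cells. It was 398, 280 and 232 CPM in neutrophil-like cells of CON, UV and Rux. In red blood cell-like cells it was 255, 202 and 540 CPM, and in mast cell-like cells 218, 135 and 139 CPM. FB-like cells held 91.6%, 92.8% and 97.1% of all Col1a1 UMIs in CON, UV and Rux. For the minor chains the share was lower and less even, at 56.0%, 74.8% and 94.7% for Col11a1, 46.1%, 58.8% and 67.0% for Col24a1 and 15.03%, 45.8% and 79.2% for Col27a1. Over all retained cells, where the FB-like share also differs, Col1a1 was 1401, 1537 and 2108 CPM. That is the reverse of its order between CON and the other libraries in FB-like cells.

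The cells named pericyte-like, after the contractile cells around small vessels, were a single cluster led by Myh11 and Lmod1 (211, 244 and 114 cells). These leading genes are also those of vascular smooth muscle, and whether the cluster held pericytes or smooth muscle cells was not tested. Pericyte-like cells held types I, III and V above the myeloid-like and lymphocyte-like levels. Col1a1 was 1425, 500 and 285 CPM in CON, UV and Rux, lower at each step, with log2 ratios of −1.51 and −0.81. The Rux level lay between the neutrophil-like and red blood cell-like levels of that library, so it is not clear of free RNA. Col1a2 was 1280, 565 and 448 CPM, with log2 ratios of −1.18 and −0.33. Col3a1 was 998, 1042 and 1047 CPM. Of the type V chains, Col5a2 (108, 226 and 313 CPM) and Col5a3 (45.5, 114 and 224 CPM) were higher at each step. Col5a1 was 61.2, 106 and 95.2 CPM, with a Rux over UV log2 ratio of −0.15 (−0.55 to 0.22). The Col5a3 log2 ratios were 1.31 (0.89 to 1.77) and 0.98 (0.69 to 1.28). The direction for Col1a1 and Col5a3 between CON and UV was that of the summed FB-like cells, and the part of fibroblast RNA in the same droplets was not tested. Another cluster, led by the pericyte markers Rgs5 and Higd1b (77, 180 and 61 cells), was left unnamed, as its endothelial and pericyte scores were close. Its Col1a1 was 98.4, 152 and 206 CPM, near the floor and in the opposite order. Its Col3a1 was 91.1, 322 and 347 CPM and its Col5a3 47.4, 117 and 141 CPM.

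Schwann-like cells, the glia of peripheral nerve (141, 182 and 102 cells), held the highest Col24a1 level of any named class. It was 131, 165 and 129 CPM, with counting intervals of both ratios spanning 0, and it was seen in 20.6%, 21.7% and 20% of cells after thinning. Col24a1 was at 0 UMIs in the lymphocyte-like cells of all 3 libraries, which allows up to 1.87 CPM in CON. Schwann-like cells were 1.31%, 1.78% and 1.10% of cells, yet held 26.4%, 21.0% and 13.8% of all Col24a1 UMIs. They also carried Col5a3 at 162, 174 and 271 CPM and Col27a1 at 151, 127 and 157 CPM, above their levels in FB-like cells in each library. Rux was the high library for Col3a1 (316, 472 and 932 CPM) and Col5a2 (151, 163 and 330 CPM). The median Schwann-like cell held 2733 UMIs, and the part of free RNA in these levels was not tested.

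**Figure D5:**
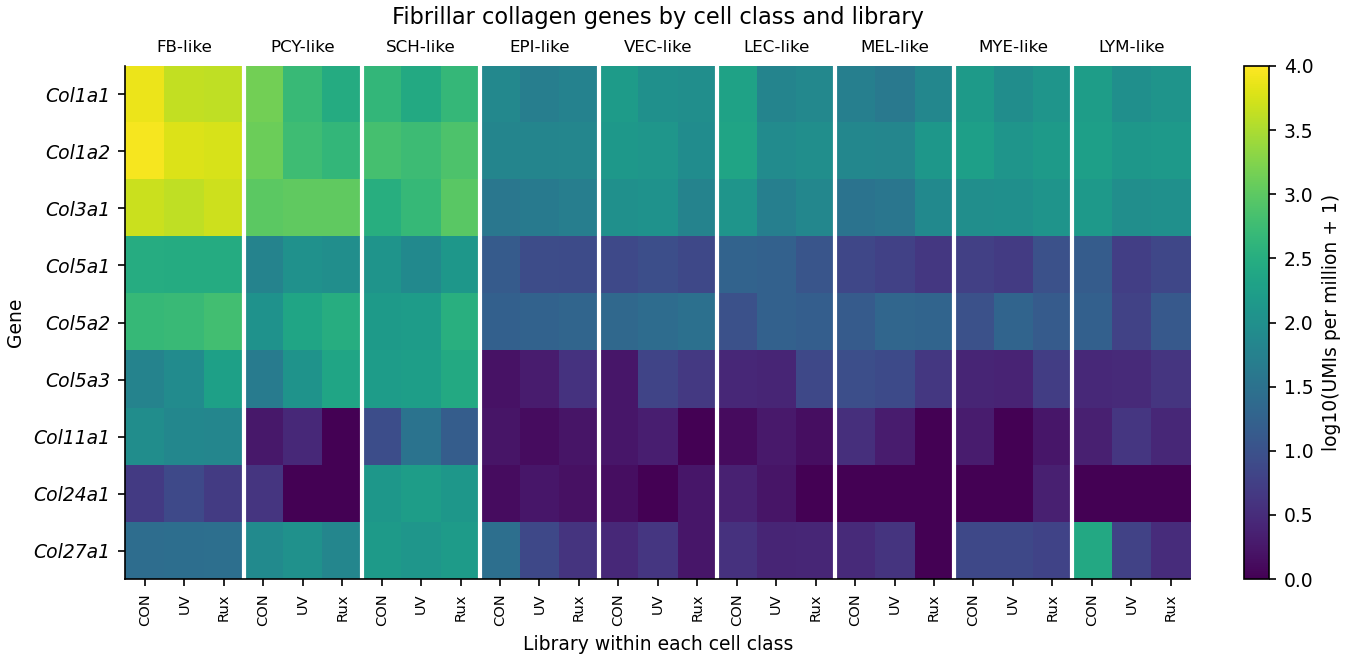
Level of each of the 9 genes by cell class and library, as the log10 of CPM with 1 added, for fibroblast-like (FB), pericyte-like (PCY), Schwann-like (SCH), epithelial-like (EPI), blood endothelial-like (VEC), lymphatic endothelial-like (LEC), melanocyte-like (MEL), myeloid-like (MYE) and lymphocyte-like (LYM) cells. Types I and III are highest in FB-like cells, Col24a1 in Schwann-like cells (131, 165 and 129 CPM), and Col27a1 in the lymphocyte-like cells of CON, at 257 CPM, against 5.25 and 2.20 CPM in UV and Rux.

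Col27a1 had the lowest FB-like share of its UMIs among the 9 genes in CON and UV, and Col24a1 had it in Rux. Epithelial-like cells held 58.4% of its UMIs in CON, 14.3% in UV and 6.16% in Rux, at 27.5, 6.49 and 2.97 CPM. Myeloid-like cells held Col27a1 at 6.24, 6.35 and 5.40 CPM. The epithelial-like level stood well above theirs in CON, beside it in UV and below it in Rux, and the step from UV to Rux is not read. Epithelial-like cells were 33.7%, 18.8% and 17.2% of the retained cells. A cluster of epithelial-like cells led by Adamts19, with 661, 242 and 117 cells, stood highest at 72.5, 25.9 and 12.9 CPM, above the myeloid-like level in each library. Without that cluster the epithelial-like level was 16.3, 4.39 and 2.43 CPM, with UV and Rux under the myeloid-like level. In lymphocyte-like cells it was 257, 5.25 and 2.20 CPM. That difference came from 1 cluster led by Zmat4 with the γδ T cell receptor genes Trdc and Trdv4 among its leading genes, which held 95 cells in CON, 2 in UV and 1 in Rux. In the 95 CON cells Col27a1 was 720 CPM, from 409 UMIs, and 85.3% of cells had a UMI (76.5% to 91.7%, Clopper-Pearson). Lymphocyte-like cells outside it held 2.91, 4.62 and 1.32 CPM, below the level of all epithelial-like cells in each library. Since the cluster was nearly absent from UV and Rux, the level within it could not be compared between conditions.

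An unnamed cluster led by Lingo2 and Adgrb3 (254, 306 and 107 cells) held Col11a1 at 287, 167 and 111 CPM, with a UMI in 81.9%, 62.1% and 36.5% of cells. Its medians of 13072, 8838 and 7914 UMIs per cell fell in the same order, so the shares of cells carry a depth difference that the CPM values do not. Col27a1 in it was 69.9, 114 and 74.95 CPM. No name is given to it, as its markers did not meet the rule.

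The remaining question was how the genes that make, assemble, bind, degrade and regulate these chains stood in FB-like cells. The 11 lists of such genes came from textbook roles, and higher and lower in what follows mean past 1.5-fold. For modification and folding of chains, 0 of 19 genes compared were higher and 1 lower in UV than in CON, the subunit P3h4 (34.6 and 21.4 CPM). The chaperone Serpinh1 was 625, 461 and 476 CPM in CON, UV and Rux. For secretion, 0 of 13 were higher and 1 lower, the COPII coat gene Sec23b (51.1, 28.1 and 23.8 CPM). Neither list had a gene past 1.5-fold from UV to Rux. The list medians were −0.20 and −0.20 for UV over CON, against −0.11 for all genes.

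Among the 7 genes of propeptide processing, 1 was higher and 0 lower in UV, the proteinase gene Tll1 (11.8 and 19.8 CPM), named after its value was seen. The procollagen proteinases Adamts2 (370, 493 and 544 CPM) and Bmp1 (190, 264 and 261 CPM) stood below the limit. From UV to Rux their helper Pcolce was lower (475 and 316 CPM), and Adamts14 was higher (7.15 and 15.6 CPM), also named after its value was seen. Of 8 cross-linking genes, Loxl1 was higher in UV (177 and 266 CPM) and Loxl4 lower (33.0 and 16.7 CPM), and Loxl4 was lower again in Rux (10.7 CPM). Both are lysyl oxidases, which start the cross-links between chains. Of the 7 collagen receptors, only Itga11 was past 1.5-fold, higher in UV at 47.7 and 71.6 CPM.

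Of 16 genes that organise fibrils, 5 were higher and 0 lower in UV. Fmod, a fibril-binding proteoglycan, was 38.4, 80.1 and 28.9 CPM, and Ogn 925, 1559 and 817 CPM, both high in UV only. Postn (170, 324 and 893 CPM) and Tnc (86.1, 145 and 238 CPM), matrix proteins of remodelling tissue, were higher at each step. The fifth was Fn1, fibronectin, at 1037 and 1604 CPM. From UV to Rux 2 were higher (Postn and Tnc) and 2 lower (Fmod and Ogn). The list median was 0.13 for UV over CON. Of 3 fibril-associated collagens, Col16a1 was lower in UV (140 and 82.2 CPM). Of 13 other collagens, 2 were higher and 3 lower in UV. Those lower were Col8a1 (185 and 79.9 CPM), Col15a1 (117 and 55.7 CPM) and Col7a1 (21.9 and 9.99 CPM), and those higher were Col4a3 (20.8 and 37.9 CPM) and Col4a4 (45.4 and 77.5 CPM). The basement membrane chains Col4a1 (332 and 574 CPM) and Col4a2 (190 and 317 CPM) were higher in Rux than in UV, and Col6a6 (56.1 and 36.6 CPM) was lower.

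For breakdown and uptake, 1 of 11 was higher in UV, the matrix proteinase gene Mmp3 (256, 398 and 569 CPM), and 1 in Rux, the inhibitor Timp1 (123, 163 and 294 CPM). In TGF-beta signalling, the main inducer of type I collagen, 2 of 20 were higher and 2 lower in UV. Ltbp1 was higher (181 and 376 CPM), as was Tgfb2 (141 and 244 CPM). Ltbp4 (270 and 129 CPM) and Ccn2 (179 and 105 CPM) were lower. Tgfb1 (39.4 and 80.02 CPM) and Ccn2 (105 and 198 CPM) were higher in Rux than in UV. Of 25 regulators of type I collagen transcription, 1 was higher and 5 lower in UV, with a list median of −0.36. Nr4a1 (823, 303 and 612 CPM), Junb (3786, 1421 and 1385 CPM), Fos (3728, 1719 and 1897 CPM) and Twist1 (227, 134 and 120 CPM) were among the 5. Ets1 was the one higher, at 58.3 and 95.9 CPM. From UV to Rux, Nr4a1 and Twist2 (92.9 and 143 CPM) were higher and none was lower. The NF-Y subunit genes Nfya, Nfyb and Nfyc, whose site is the CCAAT box shown in the promoters and which were picked after their values were seen, were at 16.4, 23.7 and 36.0 CPM in CON and 13.1, 16.2 and 27.2 CPM in UV, without passing the limit. In the Socs3-led subcluster, whose share of FB-like cells was 33.5% in CON and 7.24% in UV, Fos and Junb were at 6459 and 5343 CPM. Nr4a1 is likewise an immediate early gene, and the part of that share in this list's count was not tested. Over all genes compared, 6.30% were higher and 8.30% lower in UV over CON, and 3.42% and 5.09% in Rux over UV.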

How the data were processed

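Dorsal skin was profiled by 10x 3′ single-cell RNA-seq in 1 library per condition. The authors deposited UMI counts of every gene in every cell, as Cell Ranger gave them (6.1.2 in the submitters' processing notes, 7.0.0 in the file headers) on mm10, with no normalization. Reads that fell in introns may have been counted, since the setting is not given in the sources used here. The 9 genes and all lists were chosen with earlier results of these data known.

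Cells were kept when they had 200 or more genes and a mitochondrial share of UMIs of 10% or less, and doublets were removed with Scrublet in scanpy 1.11.5, at an assumed 0.8% per 1000 cells. Seurat 5.3.0 in R 4.3.3 clustered the cells with LogNormalize, 2000 variable genes without collagens, 30 principal components and a resolution of 1.5, and FB-like cells again with 20 components at 0.5. A cluster was named when at least 3 markers of a type were each found in at least 10% of its cells and that type led by a score of at least 1. A cluster with low UMIs per cell was named only if a marker of that type was also among its leading genes. That left a fibroblast-scoring cluster unnamed. Adding it to the FB-like cells, a comparison made after the data were seen, left the same fibrillar collagen genes past 1.5-fold. Levels are summed UMIs scaled to 1000000 UMIs. Log2 ratios carry 0.5 UMI on each side, are compared where the mean was at least 10 CPM, and are called past 1.5-fold. Gene positions came from GENCODE M21. Named genes were the 9 chains, the genes of each list with the largest ratios, the genes closest to a chain by correlation and the leading 5 genes of a cluster or subcluster. A few genes that this rule or a count would name are not reported here.

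Intervals are exact at 95% (Poisson for levels, Clopper-Pearson for shares, conditional binomial for ratios), and a count of 0 allows 3 counts. They cover counting error only and were tested on simulated data. The alternatives were other filters, other clusterings, a marker gate, other scalings, equal weight per cell and thinning. Python 3.11.15, numpy 2.4.6, pandas 2.3.3, scipy 1.17.1 and matplotlib 3.10.9 were used.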

Additional observations from a re-analysis of the deposited data

Results flagged for a closer look

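Opposite directions between FB-like subclusters were looked for among the 9 genes, where both ratios passed 1.5-fold, both rested on at least 50 UMIs and both counting intervals left out 0. Each difference between subclusters was not tested, since each condition has 1 library. Each pair sets the highest such ratio of a gene against its lowest. The Ednrb-led subcluster was on 1 side of every pair found.

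For UV over CON, the log2 ratio of Col5a3 was 1.391 in the Zfp804b-led subcluster (15.8 CPM in CON and 42.6 in UV) and −1.337 in the Ednrb-led one (78.7 and 30.8 CPM). For Rux over UV it was 0.736 in the Myo16-led subcluster (88.2 CPM in UV and 147 in Rux) and −1.241 in the Ednrb-led one (30.8 and 12.9 CPM). Thus Col5a3 was lower at each step in the Ednrb-led subcluster, on 128, 31 and 22 UMIs in CON, UV and Rux. Col11a1 and Col24a1 were highest in UV there, though the Rux over UV interval of Col24a1 (−0.92 to 0.10) spans 0. For UV over CON, the log2 ratio of Col27a1 was 0.8986 in the Ednrb-led subcluster (55.3 and 103 CPM) and −0.6776 in the one led by Gm5627 (30.1 and 18.8 CPM).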

How the results depend on the processing

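No paired analysis was possible because each condition has 1 library. The 9-gene medians (−0.05 for UV over CON, −0.01 for Rux over UV) were near 0 and changed sign under several alternatives. For UV over CON the median was −0.21 with a strict cell filter and new clusters, 0.061 with a gate on markers in place of clusters, 0.057 with median-of-ratios scaling (which moved the median of all genes from −0.11 to 0.0035), 0.022 with equal weight per cell and 0.038 after thinning. Under alternatives chosen after seeing the data it was 0.34 without the Grem1-led subcluster and −0.27 without the Socs3-led one. For Rux over UV it was 0.069 with the strict filter, −0.13 with equal weight per cell and −0.092 without the Saa3-led subcluster. Of the 9 genes, 2 were past 1.5-fold in UV over CON (Col1a1, and Col24a1 from under the CPM minimum). With the marker gate and with equal weight per cell it was 1 (Col24a1). Without the Socs3-led cells there were 4 (Col1a1, Col1a2, Col3a1 and Col11a1). With the strict filter there were 3 (Col1a1, Col1a2 and Col11a1), so Col24a1 was lost in both. Col1a1 in UV over CON reversed to 0.39 without the Grem1-led cells, and otherwise ran from −1.32 to below 0 in 15 of 16 alternatives, past 1.5-fold in 13. Col5a3 in Rux over UV (0.80 to 1.28) and Col24a1 in Rux over UV (−0.92 to −0.62) stayed past 1.5-fold in 16 of 16. At equal subcluster shares Col5a3 in Rux over UV was 0.25 and past 1.5-fold in 0 of 4 alternatives. Col24a1 there was −0.62 and past it in 3 of 4, at equal-share levels of only 1.71, 2.61 and 1.70 CPM in CON, UV and Rux. Equal shares leave out the Coch-led and Saa3-led subclusters, with 41.1% and 7.02% of the FB-like Col24a1 UMIs. The Saa3-led subcluster also held 23.7% of those of Col5a3. Col11a1 in UV over CON ran from −0.99 with the strict filter to 0.31 after thinning. With the strict filter, 1283, 604 and 706 of the cells named FB-like in CON, UV and Rux that passed it fell into unnamed clusters.

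At equal subcluster shares the 9-gene median (0.46 for UV over CON, −0.50 for Rux over UV) was 0.30 and −0.63 at a subcluster resolution of 0.3, 0.41 and −0.53 at 0.8, and 0.41 and −0.40 with the shares of CON. Without the Grem1-led subcluster it was −0.49 for Rux over UV. With median-of-ratios scaling the UV over CON list medians were −0.094 (modification and folding), −0.092 (secretion), 0.47 (propeptide processing), 0.24 (cross-linking), −0.12 (fibril-associated collagens), −0.046 (other collagens), 0.24 (fibril organisers), 0.25 (receptors), 0.27 (breakdown and uptake), 0.11 (TGF-beta signalling) and −0.25 (regulators). For Rux over UV they were −0.055 (propeptide processing), −0.010 (fibril organisers) and 0.084 (breakdown and uptake). With 10 UMIs in place of the CPM minimum, the medians were −0.17 (fibril-associated collagens) and 0.19 (fibril organisers) for UV over CON. For Rux over UV they were −0.13 (propeptide processing), −0.049 (fibril-associated), −0.21 (other collagens), −0.21 (receptors) and 0.36 (breakdown and uptake).

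Unthinned shares of FB-like cells with a UMI, which follow depth, were in CON, UV and Rux 91.9%, 94.1% and 92.4% for Col1a1, 98.0%, 98.8% and 98.9% for Col1a2, and 88.2%, 90.8% and 89.7% for Col3a1. They were 63.3%, 69.0% and 69.5% for Col5a1, 71.0%, 79.6% and 84.4% for Col5a2, and 20.4%, 26.0% and 38.05% for Col5a3. They were 4.36%, 5.34% and 7.80% for Col11a1, 1.40%, 2.05% and 1.76% for Col24a1, and 11.8%, 12.8% and 15.2% for Col27a1. Counting limits the ratios of Col24a1 most, with 89 UMIs in CON.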

Other observations

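The subcluster led by Myo16 also belongs to the FB-like cells rich in type I collagen. It held 14.98% of the Col1a1, 16.5% of the Col1a2 and 16.9% of the Col3a1 UMIs of FB-like cells. It was 1.66% of FB-like cells in CON, 11.2% in UV and 14.2% in Rux, the order opposite to that of the Grem1-led subcluster between CON and UV. Its Col1a1 was 5085, 7752 and 4231 CPM and its Col3a1 4186, 7812 and 4874 CPM, both highest in UV.

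The Adamts18-led subcluster held 20.3% of the Col27a1 and 13.0% of the Col11a1 UMIs of FB-like cells, beside its share of Col5a3. Its Col27a1 was 65.6, 74.1 and 58.8 CPM. Muscle progenitor-like cells (154, 50 and 28 cells) held Col3a1 at 265, 1323 and 687 CPM and Col5a3 at 73.8, 83.8 and 85.9 CPM. Both rest on few cells in UV and Rux, and no cluster took this name at a clustering resolution of 0.8 or with the strict filter. Col1a1 in the same cells was 373, 796 and 533 CPM, and the part of fibroblast RNA was not tested.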
